A study of Mus musculus with 2 samples.

Results

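Immediate early genes were followed through the immune cells of MC38 tumours, by 10 members: Jun, Junb, Jund, Fos, Fosb, Rhob, Egr1, Nr4a1, Dusp1 and Ier2. These 10 genes, of 27188 listed in the deposited matrices, were chosen by name and not by a measured value, and all 10 were listed for both libraries. MC38 is a mouse colon carcinoma line. It was implanted under the skin of C57BL/6 mice, and CD45+ cells, the immune fraction, were sorted from the tumours on day 14. The labels give the genotype as WT and the cell type as tumor cells, whereas nearly all clusters below carried immune markers. The library called PBM came from mice given photobiomodulation, daily exposure to light from day 7 on, and the other from control mice. Both groups carried the same tumour line and went through the same digestion, 20 min at 37 °C with type IV collagenase (1 mg/mL) plus DNase I (50 U/mL), then a 70 µm strainer and red cell lysis. Cells were pooled within a condition, and the number and age of the mice in a pool are not given in the sources used here. With 1 library per condition no test was possible. Each interval below is a 95% interval for counting error only, and the light treatment, the pool of mice, the handling of that pool and the library cannot be told apart.

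Immediate early genes are transcribed within minutes of a stimulus from factors that are already present in the cell, without new protein synthesis. Jun, Junb and Jund, with Fos and Fosb, encode subunits of the AP-1 transcription factor. In lymphocytes these genes respond to antigen receptor and cytokine signals, and in many tissues they also respond to enzymatic digestion at warm temperature. The same transcripts are read out in either case, so genes of activation and of digestion stress were read beside them.

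The promoters of 8 members were in the RefSeq table of build GRCm38.p6, from 250 bases before to 50 bases after the transcription start; Egr1 and Ier2 had no entry. TGACG, the core of the cAMP response element, was searched on both strands and found in 5 of the 8 (Junb, Fos, Fosb, Nr4a1 and Dusp1), and in 20.8% of all 32851 promoters of that length. The full palindrome TGACGTCA, which holds the core on both strands, was in 1 of 8, Dusp1, and in 1.79% of all promoters. The AP-1 site TGANTCA was in 0 of 8 (7.81% of all), and the CArG box of serum response factor was in 0 of 8 (1.63% of all). A match describes the letters and not a bound site, and sites outside this window or with other letters were not searched. The 4 promoters below are examples. Fos and Dusp1 were lower in PBM T-like and B-like cells, as were Jun, Jund, Fosb, Rhob and Egr1, while Nr4a1 and Junb differed in direction between classes. All 4 hold TGACG, and the promoters of Jun, Jund and Rhob, which lack it, are not shown. A link between the motif and the ratios was not tested. Capitals mark TGACG on the printed strand or its complement CGTCA.
Fos, chr12:85473640-85473939, plus strand: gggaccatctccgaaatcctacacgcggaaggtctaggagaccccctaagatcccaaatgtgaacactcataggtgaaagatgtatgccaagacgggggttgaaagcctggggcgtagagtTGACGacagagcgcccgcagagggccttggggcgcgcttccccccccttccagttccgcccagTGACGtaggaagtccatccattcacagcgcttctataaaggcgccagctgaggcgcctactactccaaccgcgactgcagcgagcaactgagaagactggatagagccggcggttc
Junb, chr8:84978699-84978998, minus strand: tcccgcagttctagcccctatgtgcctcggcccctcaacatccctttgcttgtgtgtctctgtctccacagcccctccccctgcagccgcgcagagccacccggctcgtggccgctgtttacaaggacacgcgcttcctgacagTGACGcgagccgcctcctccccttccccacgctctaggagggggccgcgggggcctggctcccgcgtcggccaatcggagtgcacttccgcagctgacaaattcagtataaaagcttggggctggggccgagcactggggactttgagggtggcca
Nr4a1, chr15:101266596-101266895, plus strand: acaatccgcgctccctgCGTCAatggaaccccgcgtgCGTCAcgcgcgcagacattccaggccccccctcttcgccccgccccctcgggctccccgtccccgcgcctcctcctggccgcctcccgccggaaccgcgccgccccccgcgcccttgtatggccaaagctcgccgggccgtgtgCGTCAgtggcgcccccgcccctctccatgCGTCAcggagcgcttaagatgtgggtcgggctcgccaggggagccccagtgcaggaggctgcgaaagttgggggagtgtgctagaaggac
Dusp1, chr17:26508423-26508722, minus strand: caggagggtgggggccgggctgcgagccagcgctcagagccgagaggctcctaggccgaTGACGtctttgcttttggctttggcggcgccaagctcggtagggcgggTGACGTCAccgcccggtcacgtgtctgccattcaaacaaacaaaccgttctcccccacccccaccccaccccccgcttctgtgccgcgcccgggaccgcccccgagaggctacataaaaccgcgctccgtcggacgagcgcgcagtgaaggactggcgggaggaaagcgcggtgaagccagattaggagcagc
In Fos the marked cores began 129 and 66 bases before the start. In Nr4a1 all 4 lay on the opposite strand, between 40 and 233 bases upstream. In Dusp1 the cores 143 and 140 bases upstream overlap and form the palindrome.

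The PBM library held 86159897 unique molecular identifiers (UMIs) in 13962 barcodes and the control library 104673228 in 11238, and 13062 PBM and 11099 control cells remained after filtering. A doublet caller removed 6.44% of PBM and 1.14% of control barcodes. Of the barcode names, 1991 were in both libraries, but the names are running cell numbers and not nucleotide sequences. Cells were clustered without the 10 members and the companion lists below, and classes were named from marker genes. T-like cells numbered 6647 in the PBM and 2196 in the control library, B-like cells 5615 and 207, natural killer (NK)-like cells 202 and 1335, and monocyte/macrophage-like cells 179 and 5110. All 8 markers of the T, B and NK lists, and all 15 of the monocyte/macrophage list, were detected in their own class in both libraries. The same markers named the classes, and markers of other classes were detected in T-like cells too, as given below. Their detection is therefore no check of the names. Levels are UMIs of a gene per 1000000 UMIs of the class in that library (CPM), and a log2 ratio is PBM over control. A gene was called lower or higher by the sign of its log2 ratio, and 2-fold lower or higher when that ratio passed 1 in size, with at least 20 UMIs in both libraries together. The median share of mitochondrial UMIs per cell was 0.0133% in PBM and 0.0796% in control T-like cells, 0.0198% and 0.122% in B-like cells, 0.0238% and 0.0754% in NK-like cells, and 0.15% and 0.227% in monocyte/macrophage-like cells; its part in the results was not tested. CPM is a share of a class's RNA, so less of a transcript per cell and fewer cells that hold it give the same value.

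In PBM T-like cells 9 of the 10 members were at lower levels, 6 of them by 2-fold or more, and none was higher by 2-fold. Of all 13989 genes read in T-like cells, 19.4% were 2-fold lower and 7.83% 2-fold higher in PBM, and 62.8% were lower by any amount. The median log2 ratio of the members was -1.09, against -0.204 for all genes. Rhob, Fosb, Nr4a1 and Jun had the lowest ratios, and Dusp1, Jund, Egr1 and Fos lay between -1.10 and -0.67. Junb and Ier2 lay near equality in the class as a whole, but not in each of its clusters, as given below. With free RNA subtracted, as described below, Jun moved to -0.33 and Fos to -0.42. Scaling mattered: with size factors that set the bulk of genes equal (edgeR's TMM) the median over all genes became 0.11, the median of the members -0.78, 4 members (Jun, Fosb, Rhob and Nr4a1) were 2-fold lower, and 15.4% of all genes were 2-fold lower and 12.3% 2-fold higher.

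Among the AP-1 subunits of T-like cells, Jun, the most active of the Jun proteins as a homodimer, was at 24.9 CPM in PBM and 64.9 CPM in control cells, a log2 ratio of -1.38 (-1.51 to -1.25). Jund, which many cells express without a stimulus, was at 272 CPM in PBM and 582 CPM in control cells (log2 ratio -1.10, -1.14 to -1.06). Junb, which can also restrain Jun, was at 586 CPM in PBM and 569 CPM in control cells (0.04, 0.01 to 0.08). The sign of the Junb ratio was not stable, as its value lay between -0.39 and 0.36 over the 15 settings used. Fos, the usual partner of Jun, stood at 69.0 CPM in PBM and 110 CPM in control cells, a log2 ratio of -0.67 (-0.76 to -0.58). Fosb, a further Jun partner, was at 5.26 CPM in PBM and 19.7 CPM in control cells, with a ratio of -1.90 (-2.16 to -1.65). Within AP-1 Fosb had the lowest ratio and Junb lay near equality; Jun came next to Fosb here, but after subtraction of free RNA Jund did, at -1.29.

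Among the other members of T-like cells, Rhob and Nr4a1 had the lowest ratios and Ier2 lay near equality. Nr4a1, an orphan nuclear receptor gene that T cells induce on antigen receptor signalling, was at 24.4 CPM in PBM and 83.3 CPM in control cells (log2 ratio -1.77, -1.89 to -1.65). Egr1, a zinc finger factor downstream of ERK signalling, was at 37.0 CPM in PBM and 70.8 CPM in control cells (-0.94, -1.05 to -0.82). Both are widely used as readouts of recent T cell receptor signalling. Dusp1, a phosphatase that switches off MAP kinases, was at 33.0 CPM in PBM and 70.3 CPM in control cells (-1.09, -1.21 to -0.97). Rhob, a small GTPase of endosomes and the only member that acts on the cytoskeleton and vesicle traffic, had 103 UMIs in PBM and 217 in control cells, or 2.26 and 16.0 CPM (-2.82, -3.18 to -2.48). Ier2, a short-lived nuclear protein, was at 142 CPM in PBM and 144 CPM in control cells (-0.03, -0.10 to 0.05), an interval that holds 0. With TMM scaling Junb was at 0.36 and Ier2 at 0.29, so the direction of neither is settled.

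Markers of other classes differed between the libraries too. Markers of monocytes and macrophages, all 15 detected, summed to 993 CPM in PBM and 2586 CPM in control T-like cells. That list holds Ly6c2, which also served as a marker of memory-like CD8 T cells, so its sum need not come from other cells alone. B cell markers, all 8 detected, summed to 533 CPM in PBM and 24.4 CPM in control T-like cells. The part of either list in the result was not tested. Free RNA of lysed cells can enter every droplet; from markers of other classes it was estimated at 19.4% of the library's mean level in PBM and 14.8% in control T-like cells. At that rate it could supply 27.7% of Jun UMIs in PBM and 63.2% in control T-like cells, and 47.3% and 75.1% of Rhob UMIs. With free RNA subtracted the Jun ratio was -0.33 and the Rhob ratio -1.66, whereas Nr4a1 stood at -2.0, Jund at -1.29, Fosb at -2.19 and Egr1 at -0.96, each at least as far from 0 as without the subtraction. The number of members 2-fold lower was then 4, against 6 without it, and Jun was not among them.

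**Figure D1:**
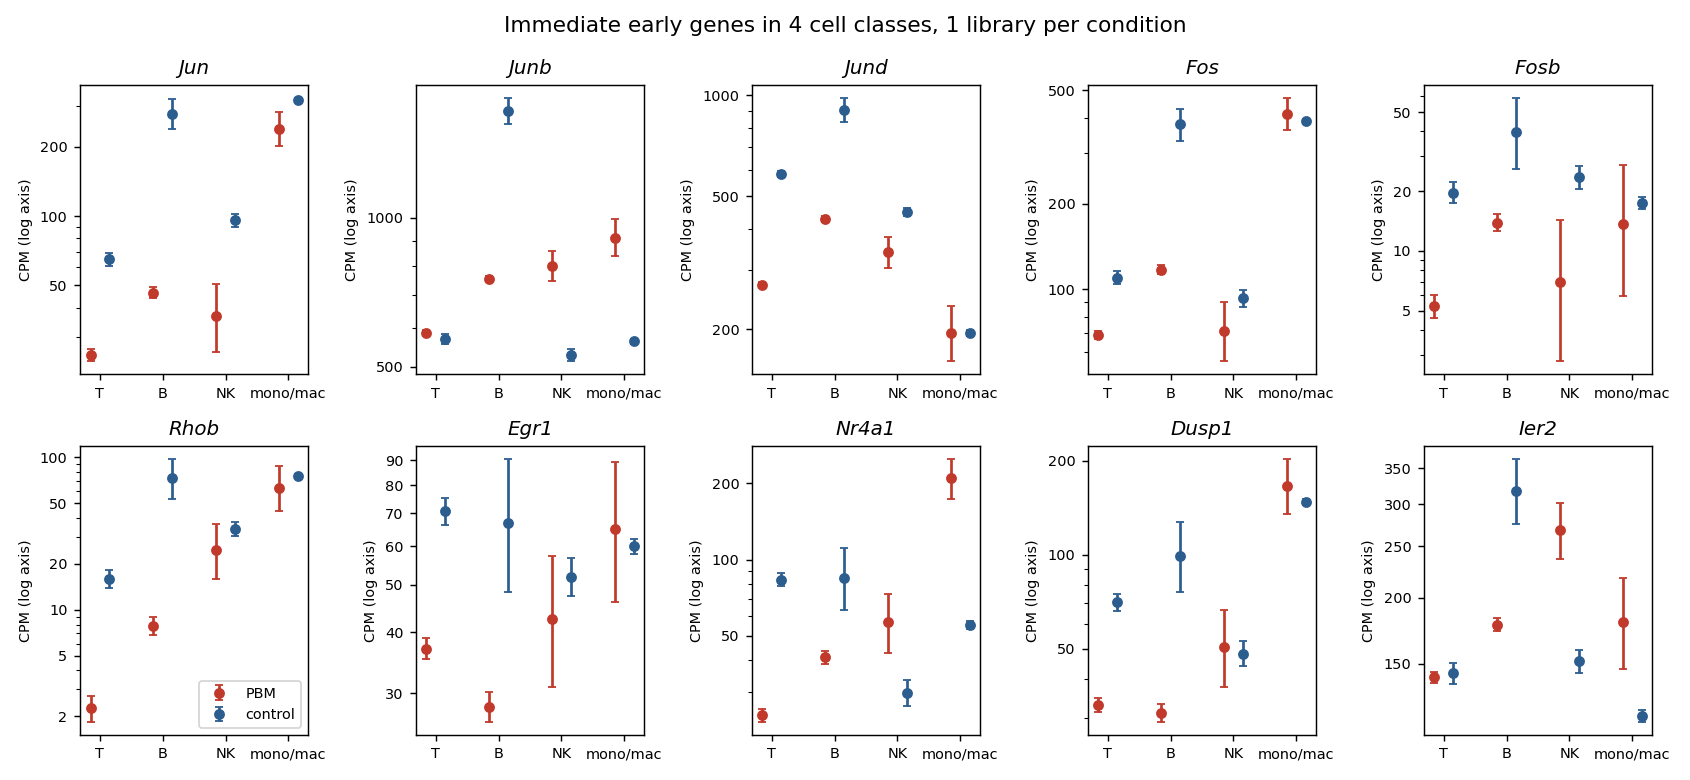
Levels of the 10 immediate early genes in T-like, B-like, NK-like and monocyte/macrophage-like (mono/mac) cells, in CPM on a log axis, with PBM in red and control in blue. Points are 1 library each and bars are 95% Poisson intervals. In T-like cells Nr4a1 stands at 24.4 CPM in PBM and 83.3 CPM in control cells, while in mono/mac cells it stands at 209 CPM in PBM and 55.4 CPM in control cells.

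T cells of the libraries were of different kinds, so the members were also read in subsets defined by UMIs of other genes. Cells with Cd8a or Cd8b1 and no Cd4 (3527 PBM, 1125 control) had 6 members 2-fold lower, against 18.2% of all genes, with a median of -1.23. In these cells Nr4a1 was at 17.1 CPM in PBM and 84.5 CPM in control, a log2 ratio of -2.30 (-2.48 to -2.13). Cells with Cd4 and no Cd8a or Cd8b1 (1083 PBM, 539 control) had 5 members 2-fold lower, against 16.5% of all genes, with a median of -0.987. There Dusp1 was at 42.6 CPM in PBM and 112 CPM in control (-1.39, -1.63 to -1.15). Cells with a Foxp3 UMI, the defining factor of regulatory T cells (506 PBM, 508 control), had all 10 members lower, 6 of them 2-fold, against 12.6% of all genes. By any amount, 60.4% of all genes were lower there. Jun was at 21.1 CPM in PBM and 107 CPM in control Foxp3+ cells (-2.35, -2.71 to -2.002).

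The 3 T-like clusters with at least 50 cells in both libraries gave other Nr4a1 values than the class as a whole, each resting on few cells of 1 library. In the cluster led by Ifng (79 PBM, 1474 control cells) Nr4a1 was at 104 CPM in PBM and 82.5 CPM in control cells (0.33, -0.11 to 0.75). In the cluster led by Dapl1 (3201 PBM, 65 control) the Nr4a1 ratio was 0.13 (-1.24 to 2.02) and in the cluster led by Gm12840 (2641 PBM, 62 control) 0.34 (-0.89 to 1.97), on 4 and 5 control UMIs. All 3 intervals held 0. Over the 10 members, 5 were lower in the Ifng-led cluster, with a median of -0.265 against 0.0421 for all genes, 8 in the Dapl1-led one (-0.803 against -0.0872) and 8 in the Gm12840-led one (-0.431 against -0.0558). Of all genes, 43.9%, 46.9% and 45.2% were lower in these 3 clusters, with genes without a direction kept in the total. The medians leave those genes out, so these shares understate the part lower among genes with a direction. Jun was lower in all 3, at -2.10 (-3.73 to -0.87), -2.62 (-3.14 to -2.05) and -1.76 (-2.28 to -1.19). Junb differed in direction between them, at 0.83 (0.68 to 0.97), -0.71 (-0.89 to -0.52) and -0.43 (-0.62 to -0.25). Ier2 was at 0.93 (0.66 to 1.19), -0.50 (-0.88 to -0.10) and -0.19 (-0.63 to 0.28). In an unnamed cluster led by Tcrg-C2 (276 PBM, 407 control), outside the T-like class, Nr4a1 was at 46.9 CPM in PBM and 16.0 CPM in control cells (1.55, 0.96 to 2.17).

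Re-clustered T cells gave levels by subset. Summed over the 10 members, regulatory T cells were at 1587 CPM in PBM (1550 to 1625; 758 cells) and 2163 CPM in control (2110 to 2217; 584 cells). In regulatory T cells 9 members were lower in PBM and 3 of them 2-fold (Jun, Rhob and Dusp1), against 13.5% of all genes. By any amount, 57.5% of all genes were lower there. The PBM and control regulatory T cells lay in separate sub-clusters: one led by Tiam1 and Izumo1r held 749 PBM and 17 control cells, the other, led by Il10 and Klrg1, held 9 and 567. Other subsets had 50 cells in 1 library only. In the PBM library, naive-like T cells had a summed member level of 1253 CPM (1240 to 1265), interferon-stimulated T cells 983 CPM (934 to 1035), memory-like CD8 T cells 871 CPM (850 to 893) and cycling T cells 690 CPM (654 to 727). In the control library, effector/exhausted CD8 T cells had 1487 CPM (1459 to 1516), and an unnamed T sub-cluster led by Gzma and Ccl5 had 1872 CPM (1825 to 1921). None of the intervals of these PBM subsets overlapped each other. Within the naive-like PBM cells, a sub-cluster led by St8sia6 and Igfbp4 stood at 1655 CPM and one led by Rapgef4 and Rfx3 at 937 CPM, so sub-clusters of the same name spanned much of the range between names. At a finer clustering (resolution 2.0, chosen after seeing the data) further subsets had 50 cells in both libraries. Memory-like CD8 T cells (358 PBM, 296 control) had 10 of 10 members lower in PBM with a median of -1.58, against -0.352 for all genes, of which 70.5% were lower. Conventional CD4 T cells (306 PBM, 322 control) had 9 lower with a median of -0.56, against 0.0191 and 48.3% lower for all genes, and cycling T cells (124 PBM, 90 control) 8 lower with a median of -0.636, against -0.0388 and 53.1%. Nr4a1 was at -1.52 (-2.06 to -0.99) in the memory-like CD8 cells but at 0.56 (0.14 to 1.00) in the conventional CD4 cells.

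In B-like cells every member had the same direction. All 10 members were lower in PBM B-like cells, 9 of them by 2-fold or more and none higher by 2-fold. Of the 11775 genes read there, 57.5% were lower by any amount, 12.1% were 2-fold lower and 4.9% 2-fold higher. The median was -1.39 for the members and -0.182 for all genes. The member just inside 2-fold was Nr4a1, at 41.3 CPM in PBM and 84.6 CPM in control cells (-1.04, -1.43 to -0.61), and the one outside was Ier2, at 178 and 318 CPM (-0.84, -1.04 to -0.62). Jund was at 427 CPM in PBM and 903 CPM in control cells (-1.08, -1.20 to -0.96), a difference close to that in T-like cells. Junb, near equality in T-like cells as a whole, was at 754 CPM in PBM and 1644 CPM in control B-like cells (-1.12, -1.21 to -1.03). Dusp1 was at 31.2 CPM in PBM and 98.9 CPM in control cells (-1.67, -2.04 to -1.27). Jun and Rhob had the lowest ratios, -2.58 (-2.81 to -2.34) and -3.23 (-3.70 to -2.74). Egr1 and Fosb rested on 42 and 25 control UMIs, with ratios of -1.25 (-1.70 to -0.77) and -1.52 (-2.11 to -0.88).

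Most control B-like cells, 174 of 207, lay in a cluster led by Iglc1, Igkc and Mzb1 that also held 2925 PBM cells. In that cluster alone all 10 members were 2-fold lower in PBM, against 10.1% of all genes, with a median of -1.39. The B-like direction held for every member under each of the 15 settings used, but with TMM or DESeq2 size factors 5 members, not 9, passed 2-fold; with TMM the median of all genes was 0.0943, and 7.9% of them were 2-fold lower and 8.31% 2-fold higher. Free RNA could supply at most 14.3% of any member's UMIs in control B-like cells and at most 19.2% in PBM B-like cells. Monocyte and macrophage markers, all 15 detected, summed to 954 CPM in PBM and 2465 CPM in control B-like cells, and their part in these values was not tested.

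In NK-like cells the members lay on either side of equality. In PBM 6 members were lower and 4 higher, 2 were 2-fold lower (Jun and Fosb) and none 2-fold higher. Of 11104 genes, 43.7% were lower by any amount, 9.83% were 2-fold lower and 7.23% 2-fold higher. The members' 2-fold count lies near this background. Jun was at 36.7 CPM in PBM and 95.7 CPM in control NK-like cells (-1.38, -1.90 to -0.91), and Fosb had 7 and 227 UMIs (-1.76, -3.09 to -0.69). Junb was at 799 CPM in PBM and 528 CPM in control NK-like cells (0.60, 0.49 to 0.70), and Ier2 at 268 and 152 CPM (0.82, 0.63 to 1.01). Nr4a1 was at 56.5 CPM in PBM and 29.8 CPM in control NK-like cells (0.92, 0.49 to 1.34). With each NK-like cell weighted equally the Nr4a1 ratio was 0.28, and in cells thinned to 1000 UMIs it was -0.18. Jund and Fos were slightly lower, with ratios of -0.40 (-0.56 to -0.24) and -0.38 (-0.74 to -0.03), and the intervals of Rhob, Egr1 and Dusp1 held 0. Free RNA could supply 17.6% of Jun UMIs in PBM and 40.6% in control NK-like cells, and the Jun ratio after subtraction was -0.84, no longer past 2-fold.

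**Figure D2:**
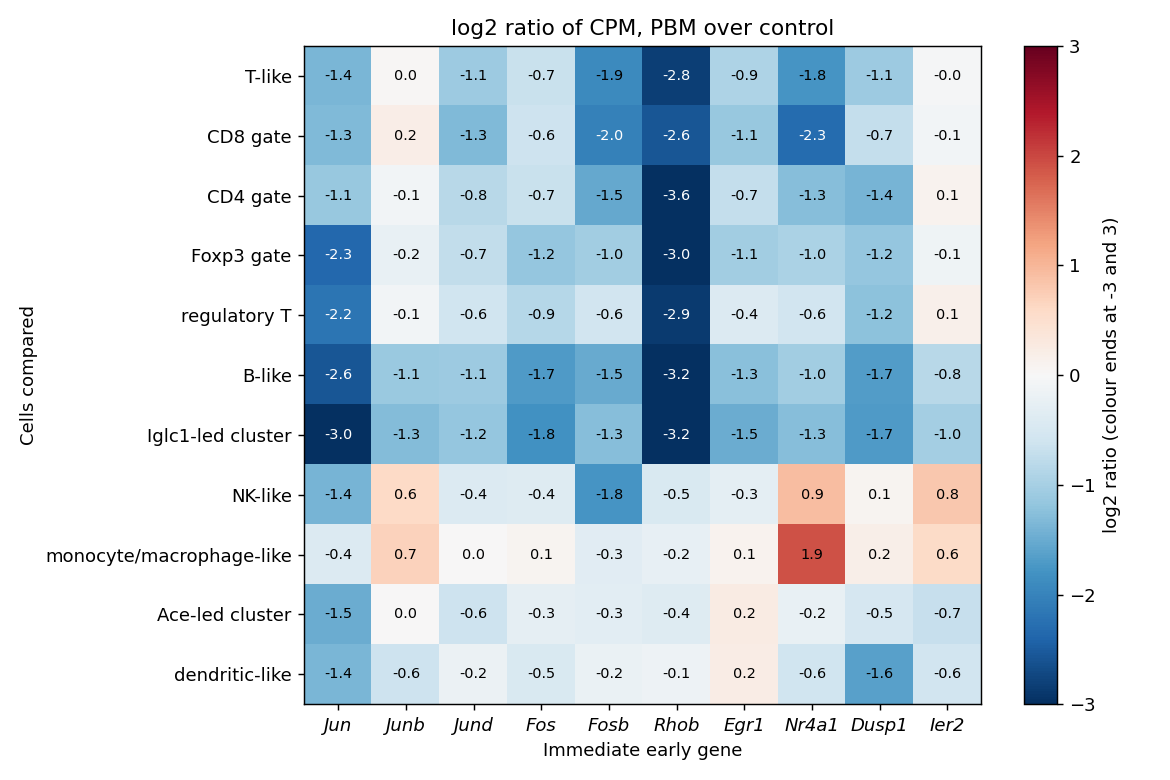
Log2 ratio of CPM, PBM over control, for the 10 members (columns) in cell classes, gates and clusters (rows); blue is lower and red higher in PBM, and the colour ends at -3 and 3. The B-like row runs from -3.2 to -0.8, while the monocyte/macrophage-like row holds 7 members above 0, led by Nr4a1 at 1.9.

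In monocyte/macrophage-like cells the intervals of 6 members (Jund, Fos, Fosb, Rhob, Egr1 and Dusp1) held 0. In PBM 3 members were lower and 7 higher, with a median log2 ratio of 0.0983, against -0.00561 for all genes with a direction. Of all genes read, 41.2% were lower, but that total includes genes without a direction, so it does not mean that most were higher. None was 2-fold lower, where 9.31% of all 13766 genes were, and 1 was 2-fold higher, Nr4a1, where 10.9% of all genes were. Fos was at 414 CPM in PBM and 391.8 CPM in control cells (0.08, -0.11 to 0.26), and Jund at 195 CPM in both libraries (0.00, -0.28 to 0.27). Jun was at 240 CPM in PBM and 320 CPM in control cells (-0.42, -0.67 to -0.18), so that Jun was below control in all 4 classes, although in the Nos2-led cluster described next it was at 0.17 (-0.12 to 0.45). Junb was at 913 CPM in PBM and 564 CPM in control cells (0.69, 0.57 to 0.82), and Ier2 at 180 and 120 CPM (0.59, 0.29 to 0.86). Nr4a1, which patrolling monocytes of the mouse need for their survival, was at 209 CPM in PBM and 55.4 CPM in control cells (1.91, 1.64 to 2.18).

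The Nr4a1 ratio differed between the myeloid clusters. A cluster led by Ace, Adgre4 and Ear2, genes known from patrolling monocytes, held 69 of the 179 PBM and 705 of the 5110 control cells of this class. In that cluster Nr4a1 was at 476 CPM in PBM and 555 CPM in control cells (-0.22, -0.53 to 0.07). There 8 members were lower, where 55.2% of all genes were, and 1, Jun, 2-fold lower, against 13.2% of all genes. In the cluster led by Nos2, Ccl24 and Arg1 (78 PBM, 3012 control cells), Nr4a1 was at 67.8 CPM in PBM and 26.6 CPM in control cells (1.35, 0.65 to 1.97). Ier2 was at -0.68 (-1.15 to -0.24) in the Ace-led and 0.41 (-0.03 to 0.82) in the Nos2-led cluster. Junb was at 0.02 (-0.18 to 0.21) in the Ace-led and 0.49 (0.31 to 0.67) in the Nos2-led cluster. In the control library alone, Nr4a1 was at 676 CPM (639 to 714) in the sub-cluster led by Ace, Adgre4 and Treml4, at 347 CPM (311 to 386) in the one led by Cd177 and Hp, and between 12.7 and 56.4 CPM in the other 12 sub-clusters with 50 control cells. Over the same 14 sub-clusters Fos ranged from 221 to 1070 CPM and Jun from 168 to 505 CPM. Among the 179 PBM cells, 128 lay in a sub-cluster led by the B cell genes Cd79a, Iglc3 and Igkc, against 8 control cells. Without it, 51 PBM and 5102 control cells gave a member median of 0.303 and an Nr4a1 ratio of 2.89. B cell markers, all 8 detected, summed to 940 CPM in PBM and 15.5 CPM in control cells of this class, and their part in the result was not tested.

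**Figure D3:**
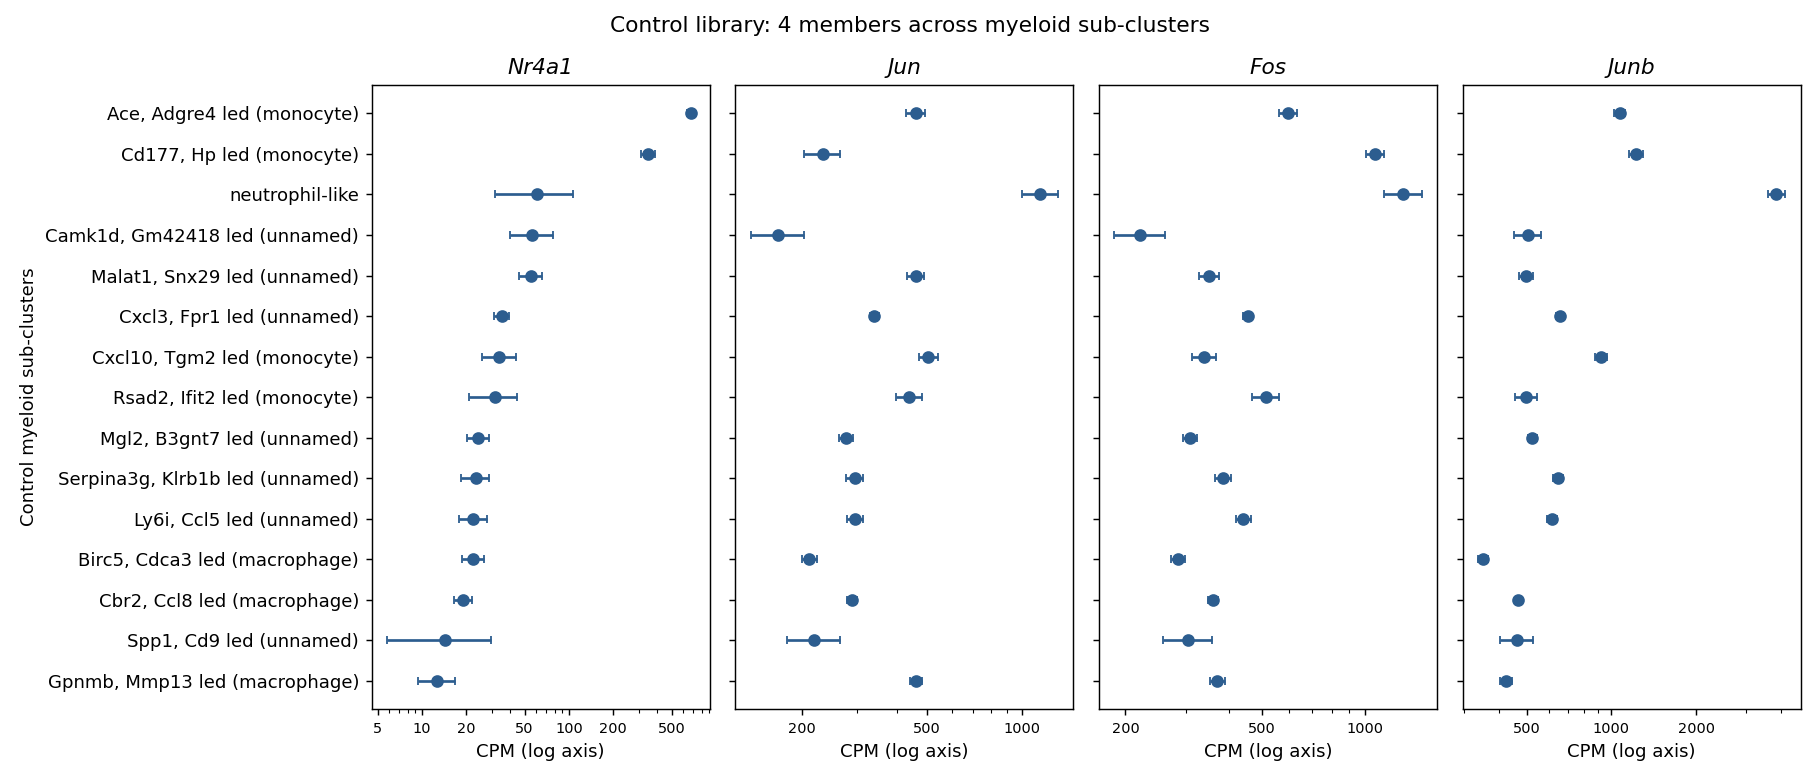
Levels of Nr4a1, Jun, Fos and Junb in CPM (log axis) in the 14 monocyte/macrophage sub-clusters and the neutrophil-like class of the control library, ordered by Nr4a1; bars are 95% Poisson intervals. Nr4a1 spans 12.7 to 676 CPM over the sub-clusters, while neutrophil-like cells lead for Jun, Fos and Junb.

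Across all classes, the cells richest in these transcripts were neutrophil-like cells of the control library, led by S100a8 and S100a9. In 72 such cells the 10 members summed to 12370 CPM (11880 to 12870), with Junb at 3865 CPM, Egr1 at 1948 CPM, Ier2 at 1386 CPM, Dusp1 at 1310 CPM and Fos at 1295 CPM. Not every member led there: Nr4a1 was at 60.7 CPM (31.4 to 106), Rhob at 106 CPM (65.8 to 162), below the 178 CPM (172 to 183) of control cells led by Sparc, and Jund at 895.5 CPM (768.5 to 1038), with an interval that overlapped that of control B-like cells. The PBM library held 11 such cells and was not compared. In the PBM library the order of the 4 compared classes was monocyte/macrophage-like cells at 2459 CPM (2333 to 2589), NK-like cells at 1695 CPM (1616 to 1778), B-like cells at 1645 CPM (1630 to 1661) and T-like cells at 1195 CPM (1185 to 1205). NK-like and B-like cells of the PBM library are neighbours whose intervals overlapped. In the control library, the order was B-like cells with 3886 CPM (3733 to 4043), monocyte/macrophage-like cells with 1947 CPM (1935 to 1959), T-like cells with 1730 CPM (1708 to 1752) and NK-like cells with 1504 CPM (1479 to 1528). Dendritic-like cells (97 PBM, 455 control) stood at 1229 CPM in PBM (1138 to 1325) and 1843 CPM in control (1795 to 1891), with Dusp1 at 40.2 and 124 CPM (-1.62, -2.31 to -1.002).

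Over 23 groups of class or T subset by library, each with at least 50 cells, the members' log2(CPM + 1) profiles were most alike for Jun and Rhob (Pearson r 0.914) and for Junb and Ier2 (0.904), and least alike for Junb and Rhob (0.286). The groups share libraries and depth, so these values describe the 2 libraries. The T subsets also lie within the T-like class. One group, the 72 control neutrophil-like cells, stood far above the others, with a member sum of 12370 CPM. How far the correlations rest on that group was not tested. The 10 genes outside the list closest to the members' mean profile were Sat1 (r 0.905), Csrnp1 and Mcl1 (both 0.895), Slc41a3 (0.889), Osm (0.888), R3hdm2 and Irak2 (both 0.884), Tnrc18 and Zc3h12a (both 0.877) and Rara (0.875). Csrnp1 and Mcl1 belong to the wider immediate early list below; Osm encodes the cytokine oncostatin M.

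Single cells gave a similar order. Each cell was thinned to 1000 UMIs, and cells with 3 or more of the 10 members were counted. They made up 6.62% of PBM (6.03 to 7.24) and 15.7% of control T-like cells (14.2 to 17.3), and 11.9% of PBM (11.1 to 12.8) and 41.1% of control B-like cells (34.3 to 48.1). In NK-like cells the shares were 14.9% in PBM (10.2 to 20.5) and 14.2% in control (12.3 to 16.1), and in monocyte/macrophage-like cells 22.9% (17.0 to 29.8) and 22.4% (21.3 to 23.6), and the intervals, which cover counting error only, overlapped in both classes. Foxp3+ T cells stood at 9.09% in PBM (6.73 to 11.9) and 24.4% in control (20.7 to 28.4). Of the neutrophil-like control cells 77.8% (66.4 to 86.7) held 3 or more members. Without thinning the shares were 54.8% of PBM and 66.4% of control T-like cells, at median depths of 5905 and 4360 UMIs, and 53.9% of PBM and 74.4% of control B-like cells, at 4452 and 2674 UMIs. Free RNA adds to all these shares, and no class that lacks these genes was at hand to set a floor; control cells led by Sparc and collagen genes, not a leukocyte profile, stood at 10.2% (8.56 to 12).

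Jun was more frequent in T-like cells that held Fos than in those without it. Among thinned T-like cells with a Fos UMI, 5.49% of PBM cells (3.51 to 8.12) and 14.3% of control cells (10.1 to 19.4) also held a Jun UMI. Among those without Fos, 2.28% of PBM cells (1.92 to 2.68) and 5.87% of control cells (4.87 to 7.01) did. The intervals did not overlap in either library, though free RNA could supply 63.2% of Jun UMIs in control T-like cells. Within the subsets they overlapped in the PBM Cd8+ cells, the control Cd4+ cells and the PBM Foxp3+ cells, and they overlapped in NK-like cells of both libraries. In B-like cells they did too: Jun was in 6.19% of Fos+ (4.35 to 8.51) and 4.04% of Fos- PBM cells (3.51 to 4.62), and in 21.3% (10.7 to 35.7) and 16.9% (11.4 to 23.6) of control cells. In control monocyte/macrophage-like cells the shares were 26.7% (24.4 to 29.1) and 25.2% (23.8 to 26.6), and the intervals overlapped.

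**Figure D4:**
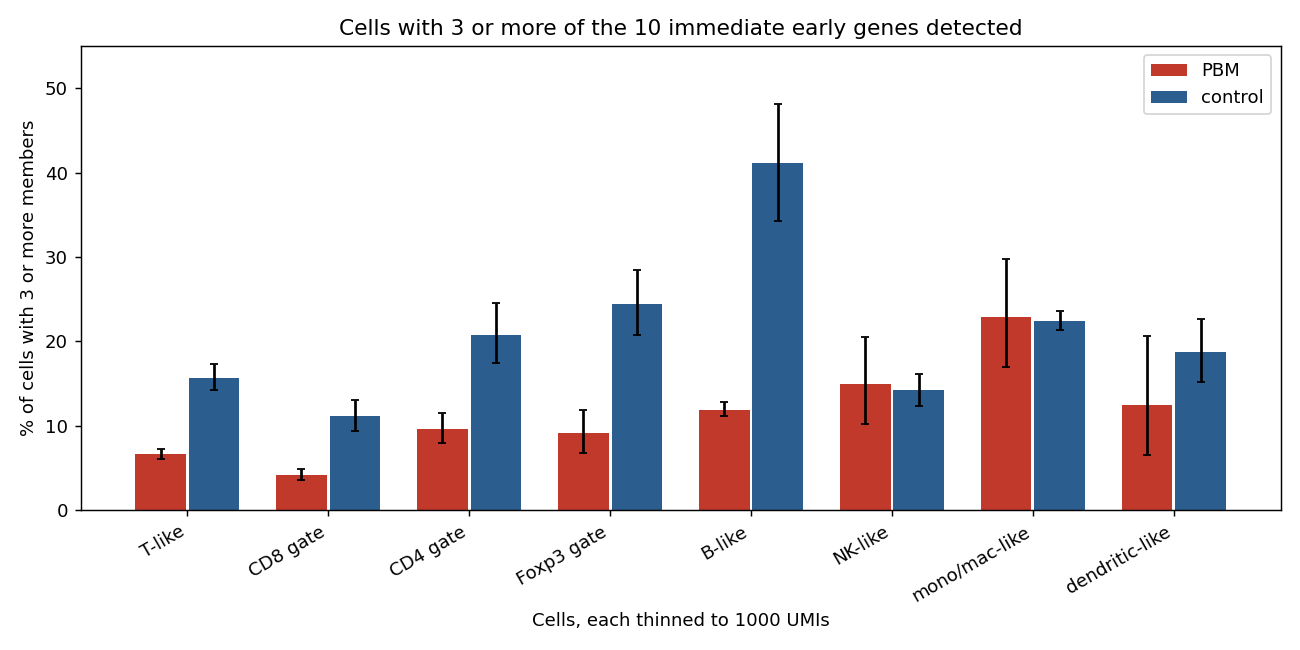
Percentage of cells with 3 or more of the 10 members detected after thinning each cell to 1000 UMIs, PBM in red and control in blue; bars start at 0 and the black lines are exact 95% binomial intervals. The bars of T-like cells (6.62% in PBM, 15.7% in control) and B-like cells (11.9% in PBM, 41.1% in control) are apart, while those of NK-like and monocyte/macrophage-like cells overlap.

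Further lists of genes that respond to the same kinds of stimulus were read beside the members. The wider immediate early list of 36 measured genes had medians of -0.751 in T-like, -0.749 in B-like, 0.300 in NK-like and 0.186 in monocyte/macrophage-like cells. Within single T-like clusters its median was -0.0544 (Ifng-led, 17 genes lower and 15 higher), -0.461 (Dapl1-led, 25 and 6) and -0.548 (Gm12840-led, 20 and 6). In T-like cells 27 of 35 genes read were lower and 16 were 2-fold lower, where 62.8% of all genes were lower and 19.4% 2-fold lower, and 16 of 20 stable genes were lower with 1 of them 2-fold. Nr4a2, a relative of Nr4a1, was at 4.62 CPM in PBM and 78.9 CPM in control T-like cells (-4.09, -4.31 to -3.88), and Fosl1 and Atf3, further AP-1 family genes, had ratios of -4.09 and -4.21. The only gene of this list that was 2-fold higher in T-like cells was Klf2, a factor of resting, circulating lymphocytes that antigen receptor signals switch off, at 419 CPM in PBM and 131 CPM in control T-like cells (1.68, 1.61 to 1.75). Klf2 was higher in PBM NK-like cells too, at 506 CPM in PBM and 114 CPM in control (2.15, 1.99 to 2.30), and in monocyte/macrophage-like cells at 277 and 85.2 CPM (1.70, 1.47 to 1.93), but lower in PBM B-like cells, at 452 CPM in PBM and 1056 CPM in control (-1.22, -1.34 to -1.11). Nr4a2 was higher in PBM NK-like cells, at 49.6 CPM in PBM and 22.8 CPM in control (1.12, 0.65 to 1.57).

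The lymphocyte activation list, made of genes that antigen receptor and costimulatory signals induce, had a median of -1.76 in T-like cells, where 13 of 20 genes were 2-fold lower, against 19.4% of all genes and 1 of 20 stable genes; 16 of 20 were lower by any amount, the same count as for the stable genes. Tnfrsf9, the costimulatory receptor 4-1BB, was at 25.6 CPM in PBM and 788 CPM in control T-like cells (-4.94, -5.03 to -4.86), Tnfrsf4 (OX40) at 65.7 and 694 CPM (-3.40), and Il2ra at 23.4 and 214 CPM (-3.20). Cd69, Myc, Cd40 and Cd83 were the 4 higher ones, with ratios of 0.22, 0.34, 0.38 and 0.70. Within single T-like clusters the list median was nearer equality, at 0.0175 (Ifng-led), -0.324 (Dapl1-led) and -0.397 (Gm12840-led). In regulatory T cells it was -0.66. The part of the different cluster make-up of the libraries in the class value was not tested. In B-like cells the median was -0.566 with 14 of 18 lower, where 57.5% of all genes and 11 of 20 stable genes were lower. Cd69 was at 68.5 CPM in PBM and 274 CPM in control B-like cells (-2.002, -2.23 to -1.77). In NK-like and monocyte/macrophage-like cells the medians were -0.456 and -0.213. The NF-kB early genes had medians of -0.908 in T-like, -0.51 in B-like, 0.00271 in NK-like and 0.485 in monocyte/macrophage-like cells. In T-like cells 15 of 15 were lower, where 62.8% of all genes were. That held for the class as a whole and not within its clusters. In the Ifng-led, Dapl1-led and Gm12840-led clusters 9, 8 and 6 of 15 were lower, with medians of -0.273, -0.0522 and 0.0839. In T-like cells Bcl3 and Tnfaip3 had the lowest ratios, -1.85 and -1.77.

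The heat shock and dissociation stress list was closer to equality than the members and the lists above in T-like (median -0.277) and B-like cells (-0.331). In NK-like cells its median was -0.185, with the NF-kB early genes at 0.00271. In monocyte/macrophage-like cells it was -0.167, with the members at 0.0983. The medians of 20 stable genes were -0.417 in T-like, -0.0254 in B-like, -0.136 in NK-like and -0.0592 in monocyte/macrophage-like cells. A few inducible members stood apart. Hspa1a and Hspa1b, the inducible Hsp70 genes, were at 0.197 and 0.241 CPM in PBM T-like cells and at 15.1 and 13.1 CPM in control T-like cells, ratios of -6.26 (-7.41 to -5.31) and -5.76 (-6.79 to -4.89). In B-like cells Hspa1a had 5 UMIs (0.18 CPM) in PBM and 50 UMIs (79.8 CPM) in control (-8.79, -10.48 to -7.48), and Hspb1 6 and 22 UMIs (-7.34, -8.94 to -6.00). NK-like cells had 0 Hspa1a UMIs in PBM and 121 in control, and 0 and 165 of Hspa1b, at least 4.21-fold and 5.74-fold lower against a floor of 3 counts in the PBM class. Free RNA could supply 11.6% of Hspa1a UMIs in control T-like, 1.93% in control B-like and 13.3% in control NK-like cells. In monocyte/macrophage-like cells Hspa1a was at 13.7 CPM in PBM and 14.2 CPM in control, with an interval that held 0 (-0.06, -1.27 to 0.93). The chaperonin Hspe1 was higher in PBM T-like cells, at 403 CPM in PBM and 284 CPM in control (0.50, 0.45 to 0.55). As whole classes, control T-like and B-like cells thus held most of the wider early list and the inducible Hsp70 genes at higher levels. Activation, digestion and the library cannot be told apart.

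**Figure D5:**
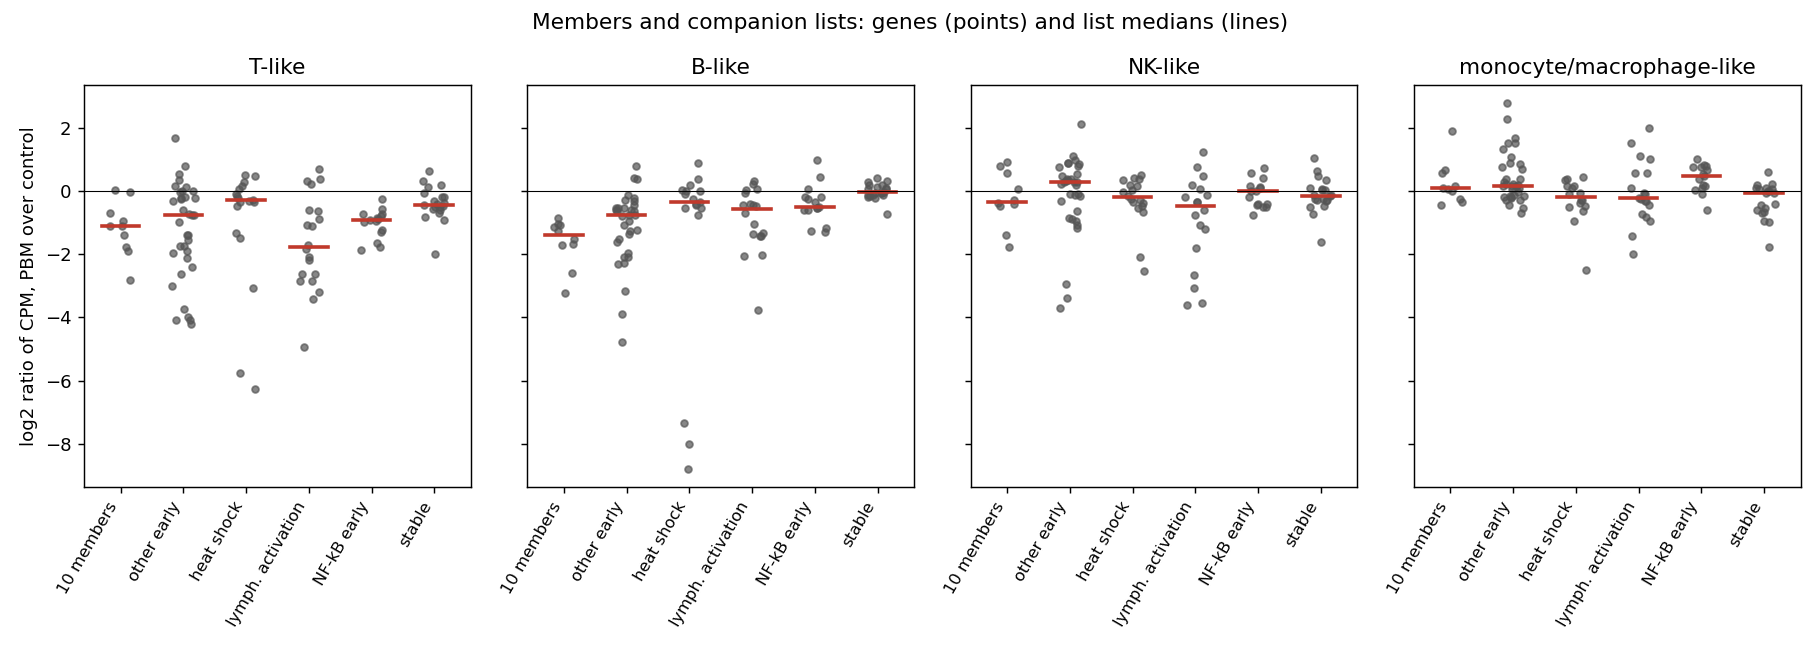
Log2 ratio of CPM, PBM over control, of each gene (points) and the list median (red line) for the 10 members and 5 companion lists in 4 classes; genes with at least 20 UMIs are shown, and a gene at 0 UMIs in 1 library stands at the floor of 3 counts. The members' medians are -1.09 in T-like, -1.39 in B-like, -0.331 in NK-like and 0.0983 in monocyte/macrophage-like cells. In T-like and B-like cells Hspa1a and Hspa1b lie far below the rest of the heat shock list.

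The macrophage inflammatory list is known from myeloid cells; its 12 genes summed to 14.6 CPM in PBM and 213 CPM in control T-like cells, 12.6 and 185 CPM in B-like cells, and 13.9 and 179 CPM in NK-like cells. In monocyte/macrophage-like cells they summed to 2087 CPM in PBM and 2285 CPM in control, with Il1b at 996 and 665 CPM (0.58, 0.46 to 0.70) and Cxcl2 at 66.8 and 310 CPM (-2.21, -2.70 to -1.76). That class made up 1.37% of PBM and 46.0% of control cells. The part of free RNA in the sums of T-like, B-like and NK-like cells was not tested, so these sums need not be expression of the lymphocytes.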

How the data were processed

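Single-cell RNA-seq libraries of 1 PBM and 1 control pool were used. The authors deposited raw UMI counts (genes by barcodes), not normalized. The labels' protocols name the 10x Genomics Chromium 3′ chemistry, version 3.1, and the submitters' processing notes name mm10 and Cell Ranger 7.2.0, while the matrix headers name PISA 0.12; which program counted the UMIs is not settled. The members and all gene lists were chosen with earlier results of these data known. Barcodes with at least 500 UMIs, 200 genes and no more than 10% mitochondrial UMIs were kept (1 PBM and 11 control barcodes lost), and Scrublet marked 899 PBM and 128 control doublets, which were left out. Clustering used scanpy 1.11.5 and igraph 0.11.9 (2000 variable genes without members and lists, 30 components, 15 neighbours, Leiden resolution 1.0), and a class needed 50 cells per library. Control T-like cells lay mostly in a cluster led by Ifng (79 PBM, 1474 control cells), PBM ones in clusters led by Dapl1 (3201 PBM, 65 control) and Gm12840 (2641 PBM, 62 control).

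UMIs were summed per class and library. Levels have exact Poisson intervals, shares exact (Clopper-Pearson) ones and log2 ratios exact conditional binomial ones, checked on simulated counts. Bounds use a floor of 3 counts per class. edgeR's TMM and DESeq2's size factors served as scaling alternatives only. Named genes are the members, the 3 highest and 3 lowest per list and class (some of them also given in another class), and the 10 genes closest to the members' mean profile among those reaching 50 CPM in a group; not all are printed. Levels in gates on T cell state are not reported here.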

Additional observations from a re-analysis of the deposited data

Results flagged for a closer look

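Nr4a1, Junb and Ier2 lay on opposite sides of equality in different cell classes, with counting intervals that left out 0 on both sides. With 1 library per condition the difference between classes was not tested. Nr4a1 had a log2 ratio, PBM over control, of -1.77 in T-like cells and -1.04 in B-like cells, against 0.92 in NK-like cells and 1.91 in monocyte/macrophage-like cells. Within the 3 T-like clusters with at least 50 cells in both libraries it was 0.33, 0.13 and 0.34, with intervals that held 0, in NK-like cells thinned to 1000 UMIs -0.18, and in the Ace-led myeloid cluster -0.22. Junb stood at 0.0418 in T-like cells, -1.12 in B-like cells, 0.60 in NK-like cells and 0.69 in monocyte/macrophage-like cells. Within the Ifng-led, Dapl1-led and Gm12840-led T-like clusters Junb was at 0.83, -0.71 and -0.43, with intervals that left out 0. In the Ace-led myeloid cluster Junb was at 0.02 (-0.18 to 0.21). Ier2 stood at -0.84 in B-like cells, 0.82 in NK-like cells and 0.59 in monocyte/macrophage-like cells. In the Ace-led myeloid cluster, however, Ier2 was at -0.68 (-1.15 to -0.24). In the Nos2-led one it was at 0.41 (-0.03 to 0.82), an interval that held 0.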

How the results depend on the processing

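The 14 alternatives chosen at the start and 4 added after seeing the data (clusters left out or read alone) gave these changes. In T-like cells the member median, -1.09, became -0.78 with TMM factors, -0.788 with DESeq2 size factors, -0.801 without mitochondrial and ribosomal protein UMIs in the totals, -1.2 with cells weighted equally, -1.27 in thinned cells, -0.939 at resolution 0.5, -0.997 with the members kept among the variable genes, -0.964 with free RNA subtracted and -1.61 without the Ifng-led cluster; within single clusters it was -0.265 (Ifng-led), -0.803 (Dapl1-led) and -0.431 (Gm12840-led). With the TMM and DESeq2 factors, with those UMIs left out and with free RNA subtracted, 4 members were 2-fold lower, against 6. In B-like cells 5 members passed 2-fold with TMM factors and 5 with DESeq2 size factors, against 9. In NK-like cells it was 1, not 2, in thinned cells and 1 with doublets kept, and the median, -0.331, was 0.0766 with free RNA subtracted, when Jun lost its 2-fold call and Nr4a1, at 1.2, gained it. In monocyte/macrophage-like cells it was 0, not 1, with cells weighted equally and 0 in thinned cells, and the median, 0.0983, was -0.224 at resolution 0.5 and -0.351 in the Ace-led cluster alone, where Nr4a1 turned to -0.224. The cause of these changes was not tested. Cells gated on markers alone fell under 50 in 1 or both libraries for each class (T 229 PBM and 26 control cells), so that alternative gave no value. The PBM minus control share of cells with 3 or more members, -9.08 percentage points in T-like and -29.2 in B-like cells, was -16.1 and -38.8 at 2000 UMIs, -15.7 and -30.6 for 2 or more members, and -3.68 and -14.3 for 4 or more. No paired analysis was possible because each condition has 1 library. Of the other values for single genes and cell shares, 433 moved by less than their counting interval, 150 by more and 1, the Nr4a1 value above, reversed. Only ratios of 2-fold or more could count as reversed. Smaller ratios that changed sign are counted with the other values. Examples are Junb in T-like cells (-0.386 to 0.356), Nr4a1 in NK-like cells (-0.182 to 1.2) and Fos in monocyte/macrophage-like cells (-0.266 to 0.609). Depth limits the classes with few cells in 1 library.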
